A study of Danio rerio with 43 samples.

Results

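The genes described are 10 members of the zebrafish Nodal pathway and of the endoderm programme that it controls. They were chosen by symbol (ndr1, ndr2, tdgf1, lft1, lft2, foxh1, mixl1, sox32, sox17 and gata5), and all 10 were found among the 31877 gene entries of the deposited count table, of which 24372 had any count. The series profiled polyadenylated RNA from pools of whole embryos with QuantSeq libraries, in which reads come from the 3′ end of a transcript. The wild-type group (strain Tab5) was compared with embryos of the same strain label that are homozygous for a mutant allele of rif1 (rif1 omf201/omf201). Rif1 is a chromatin-associated protein known for controlling the timing of DNA replication. The stages, in hours post fertilisation (hpf), were 1-cell (0 to 0.5), 256-cell (2 to 2.5), dome (4 to 4.5, late blastula), shield (6, early gastrula), bud (10, end of gastrulation) and 24 hpf. The 43 libraries comprised 22 wild-type and 21 mutant ones, with 4 and 3 at the 1-cell stage and at dome, 3 and 3 at 256-cell, 3 and 4 at shield, and 4 and 4 at bud and at 24 hpf. No group was treated with an agent. The labels do not name the genotype of the parents, so effects of maternal RNA, of the embryo's own genotype and of a separately kept line cannot be told apart.

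Nodal proteins are signals of the TGF-beta family that instruct cells at the margin of the fish blastula to form mesoderm and endoderm. The ligands Ndr1 (Squint) and Ndr2 (Cyclops) bind activin-type receptors only together with the co-receptor Tdgf1 (One-eyed pinhead), and the signal reaches target genes through phosphorylated Smad2, Smad4 and the DNA-binding partner Foxh1. Lefty proteins are secreted antagonists that are themselves induced by the signal. In the endoderm branch, Mixl1 and Gata5 act upstream of Sox32 (Casanova), which in turn switches on Sox17.

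The libraries held 5211421 to 14143931 counts. Levels are given as CPM (each count divided by the scaled library total), scaled within a stage by TMM, a method that sets aside genes with extreme values when libraries are put on one scale. Levels of different genes are not compared. Changes between neighbouring stages come from fits with their own scaling, while pooled CPM ratios and floors between stages set CPM scaled within each stage side by side, so a difference in scaling between stages enters them. The mutated gene itself had 587 to 2305 counts in the wild-type libraries and 15 to 139 in the mutant ones, and it was lower in the mutant at 6 of 6 stages, with an adjusted p of at most 3.27e-07. Differences between genotypes are log2 fold changes of mutant over wild type with their standard error (SE), and count as called where the adjusted p (Benjamini-Hochberg) was under 0.05 over all genes tested, by edgeR's quasi-likelihood test. The labels do not say whether replicate pools came from separate clutches, so a p-value measures the spread between these libraries. Lower values in a pool can mean fewer cells of a type or less RNA per cell, and in polyadenylated RNA also a shorter poly(A) tail, and these cannot be told apart.

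Coverage of the 10 genes was uneven. The co-receptor gene tdgf1 (ENSDARG00000035095) had counts in 43 libraries and was tested at all 6 stages, and foxh1 (ENSDARG00000055630) had counts in 42 and was tested at 5. The ligand gene ndr1 (ENSDARG00000057096), the antagonist genes lft1 (ENSDARG00000019920) and lft2 (ENSDARG00000044059), mixl1 (ENSDARG00000069252) and gata5 (ENSDARG00000017821) passed the filter on low counts at 4 stages each, and sox17 (ENSDARG00000101717) at 2. The ligand gene ndr2 (ENSDARG00000101279) had 74 counts in 15 libraries and sox32 (ENSDARG00000100591) had 41 counts in 5 libraries. Neither passed the filter in the comparison of genotypes at any stage.

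**Figure D1:**
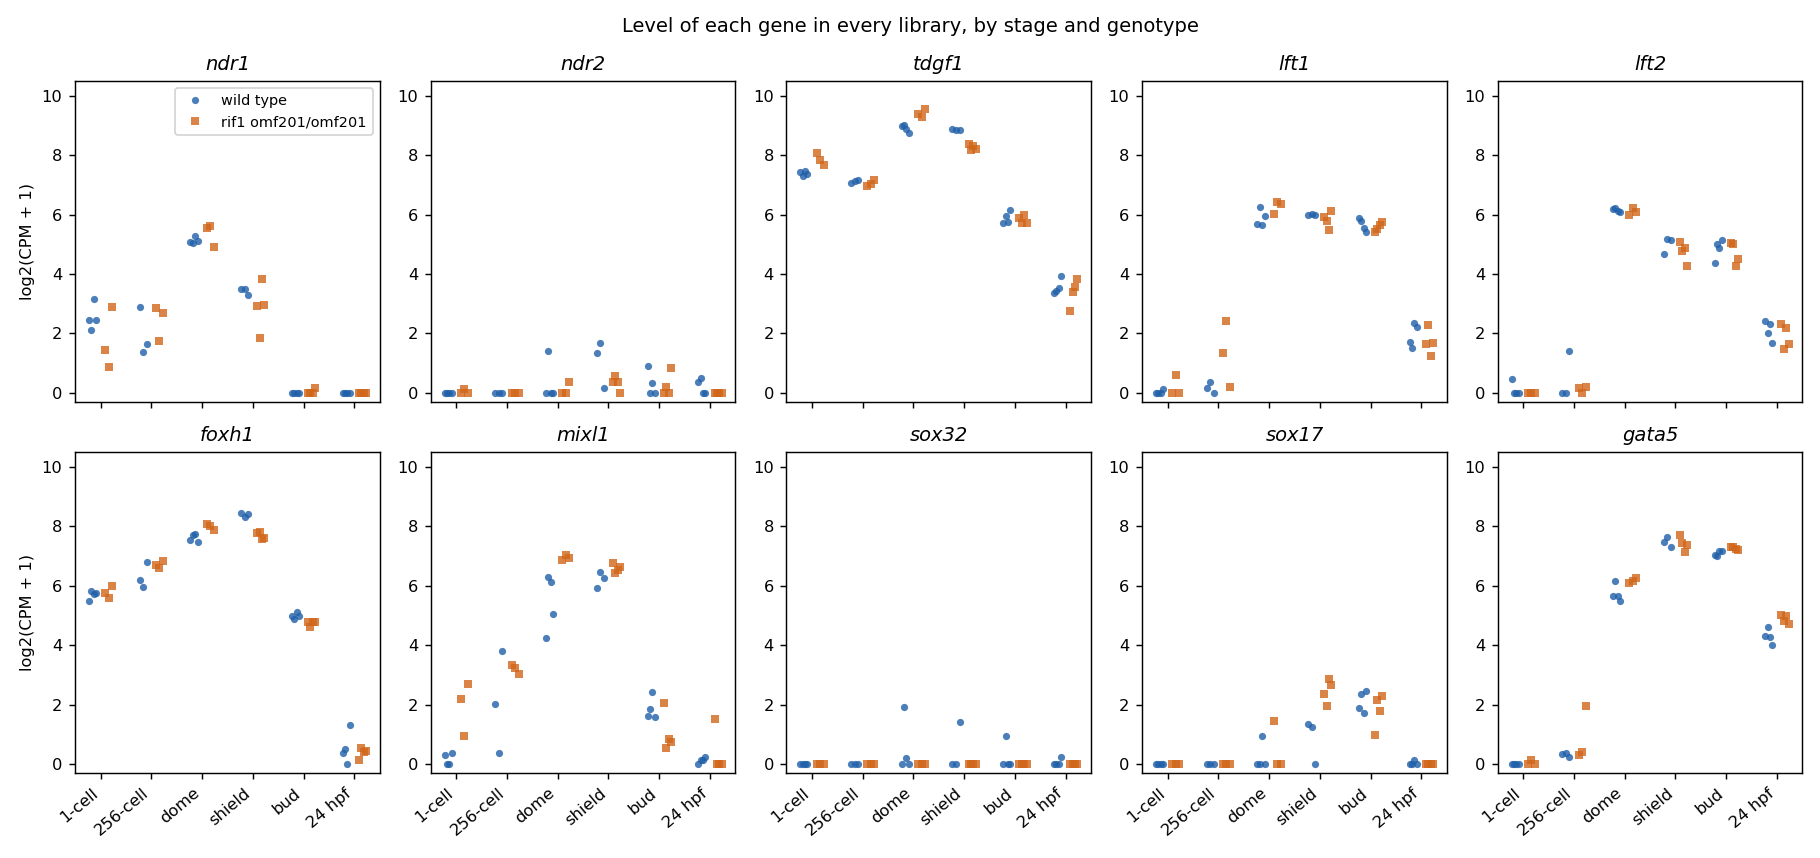
Level of each of the 10 genes in every library, as log2(CPM + 1) with CPM scaled within the stage, by stage on the horizontal axis. Circles are wild-type and squares are mutant libraries. tdgf1 and foxh1 were present from the 1-cell stage, lft1, lft2 and gata5 were higher at dome than at 256-cell, and ndr2 and sox32 stayed close to 0.

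The wild-type course of the genes set the frame for the genotype comparison. The column names number the 1-cell libraries in a series of their own, with numbers that recur at 256-cell and dome. The labels do not say what the series stand for, so comparisons of 1-cell with later stages cannot separate stage from series. From 1-cell to 256-cell, 2 of the 3 members tested changed, with foxh1 higher (0.54, SE 0.19, adjusted p = 0.0274) and tdgf1 lower (-0.39, SE 0.12, adjusted p = 0.0151). Over all genes 49.2% were called in that transition, 24.1% higher and 25.1% lower. The gene mixl1 did not pass the filter here. Without the filter edgeR gave it a rise of 5.07 (SE 1.06, adjusted p = 1.14e-05). It had 6 counts at 1-cell and 106 at 256-cell, 80 of them in 256-cell library 3. Without the filter gata5, lft1 and lft2 were not called (adjusted p of at least 0.144). The fit of all 12 groups called further members here, and gata5, lft1 or lft2 was among them. Scaling by library totals ended the tdgf1 call (-0.26, adjusted p = 0.108), and the foxh1 call was lost in 4 of its 14 alternatives: with the replicate number as a block and without 1-cell library 1 (adjusted p = 0.0651), 1-cell library 4 (adjusted p = 0.0501) or 256-cell library 3 (0.26, adjusted p = 0.308).

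From 256-cell to dome, the interval in which the embryo's own genome is switched on, 6 of 7 members tested rose, where 43.3% of all genes were called, 22.5% higher and 20.9% lower. The higher and lower calls over all genes numbered 2634 and 2447, and 2035 and 2911 when libraries were scaled by their totals. The antagonist gene lft1 had 3 counts in all in the 256-cell libraries and 50.2, 75.3, 48.7 and 61.5 CPM in those of dome. The ratio of pooled CPM was 415 (95% exact interval of the counting error 142 to 2015). For gata5, which encodes a zinc-finger transcription factor, the pooled ratio was 224 (95.6 to 690). The ligand gene ndr1 rose from 6.40, 1.58 and 2.12 CPM to between 32.1 and 38.1 CPM (log2 fold change 3.52, SE 0.41, adjusted p = 2.36e-07), and by 4.42 without 256-cell library 1. The changes of tdgf1 (2.01, SE 0.12, adjusted p = 2.74e-12), foxh1 (1.497, SE 0.17, adjusted p = 1.64e-07) and lft2 (7.35, SE 0.56, adjusted p = 2.55e-08) were also called, and without 256-cell library 1 or 3 that of lft2 was 6.70 or 12.002. The homeobox gene mixl1 had a log2 fold change of 3.43 (SE 1.11, adjusted p = 0.0527) with no overlap between the libraries of the stages, and was called without 256-cell library 2 (2.85) or 3 (5.03, adjusted p = 0.00168) or dome library 1 (3.71).

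From dome to shield, 6 of 8 members tested changed, 4 higher and 2 lower, where 52.9% of all genes were called, 26.1% higher and 26.8% lower. Library-total scaling turned those 3051 higher and 3141 lower calls into 2018 and 4678, and moved the median log2 fold change of all genes from -0.11 to -0.59. The gata5 level rose by 2.24 (SE 0.16, adjusted p = 3.25e-09) and foxh1 by 1.27 (SE 0.11, adjusted p = 1.99e-08). The ligand gene ndr1 fell by 1.32 (SE 0.27, adjusted p = 4.42e-04) and the antagonist gene lft2 fell by 0.68 (SE 0.19, adjusted p = 0.0053). The other antagonist gene, lft1, was called higher by 0.59 (SE 0.18, adjusted p = 0.011), and its value with library totals was 0.12 (adjusted p = 0.604). In edgeR's fit of all 12 groups, ndr1 (adjusted p = 0.0807), lft2 (adjusted p = 0.163) and lft1 (adjusted p = 0.186) were not called. The called rise of tdgf1 (0.45, SE 0.10, adjusted p = 8.72e-04) changed sign with library totals (-0.03, adjusted p = 0.815), so its direction between these stages depends on the scaling. The sparsely counted ligand gene ndr2 passed the filter here and was not called (2.05, SE 1.55, adjusted p = 0.283). The value of mixl1 (1.07, SE 0.41, adjusted p = 0.0518) was not called, and it was called in 5 of 14 alternatives, which were RLE factors (1.11, adjusted p = 0.0457), the replicate block (1.56, adjusted p = 1.39e-05) and the fits without wild-type dome library 1 (0.77), 2 (1.36) or 3 (1.26).

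After shield the called changes of members were downward. From shield to bud, 5 of 8 members tested fell, where 50.5% of all genes were called, 26.3% higher and 24.2% lower. The ligand gene ndr1 had 10.3, 10.3 and 8.71 CPM at shield and no count in any of the 4 wild-type bud libraries, which is at least 25.5-fold lower against a floor of 3 counts per library, on CPM scaled within each stage. The log2 fold changes were -4.64 (SE 0.28) for mixl1, -3.35 (SE 0.11) for foxh1, -2.88 (SE 0.11) for tdgf1 and -0.29 (SE 0.11) for gata5. The gata5 call (adjusted p = 0.036) was lost in 7 of 14 alternatives. It was lost without shield library 1 or 3 or bud library 1 or 2, with values of -0.31, -0.22, -0.27 and -0.27. The call was also lost with no filter (adjusted p = 0.0541), with the replicate block (adjusted p = 0.100) and in the fit of all 12 groups (adjusted p = 0.388). The values of lft1 (-0.24, adjusted p = 0.237), lft2 (-0.04, adjusted p = 0.909) and sox17 (1.90, adjusted p = 0.132) did not pass the test. From bud to 24 hpf, 7 of 7 members tested fell, where 60.0% of all genes were called, 34.4% higher and 25.7% lower. With library totals the 4237 higher and 3161 lower calls became 3681 and 3967. The change was -2.20 (SE 0.18) for tdgf1, -2.64 (SE 0.14) for gata5, -2.85 (SE 0.28) for lft2, -3.86 (SE 0.25) for lft1 and -5.56 (SE 0.49) for foxh1, the last being -6.76 without 24 hpf library 4. For sox17, which marks endoderm and later endothelium, 108 counts at bud stood against 1 at 24 hpf, and for mixl1 85 counts against 4.

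**Figure D2:**
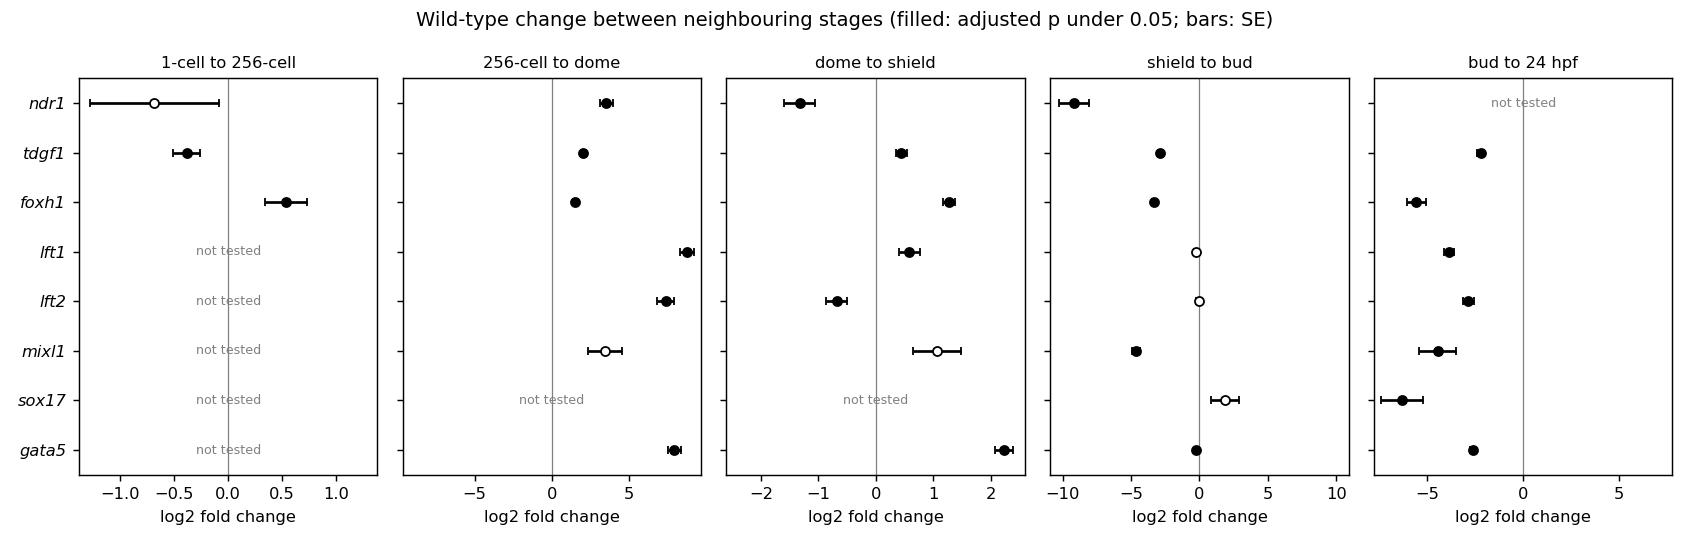
Log2 fold change between neighbouring wild-type stages with its SE, for 8 of the 10 genes (horizontal scales differ between panels). Filled points had an adjusted p under 0.05. The 6 called changes into dome were upward and the 7 called changes after bud downward. Fitted values of genes with hardly any counts at one stage depend on the prior count of the fit.

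The comparison of genotypes asked whether loss of rif1 is accompanied by other levels of these genes, stage by stage. At dome, 2 of the 7 members tested were called, both higher in the mutant, where 17% of all genes were called, 8.42% higher and 8.59% lower. At shield, 2 of the 8 members tested were called, both lower, where 9.76% of all genes were called, 4.70% higher and 5.06% lower. The called genes at the 2 stages were tdgf1 and foxh1, so the co-receptor gene and the gene for the Smad partner were above wild type in the late blastula and below it in the early gastrula. At 24 hpf, 1 of 4 members tested (gata5) was called higher, where 8.63% of all genes were called, 4.35% higher and 4.28% lower. At 1-cell, 256-cell and bud no member was called by edgeR's fit of the single stage, and 1 of 3, 0 of 4 and 0 of 7 had an unadjusted p under 0.05. DESeq2 called 1 member at 1-cell and none at 256-cell and bud. Over all genes, 10.2% were called at 1-cell (5.14% higher, 5.03% lower), 13.5% at 256-cell (6.75% and 6.71%) and 5.51% at bud (2.41% and 3.09%). Scaling by library totals changed the higher and lower calls over all genes from 623 and 609 to 772 and 446 at 1-cell, from 505 and 544 to 401 and 662 at shield, and from 545 and 537 to 409 and 700 at 24 hpf.

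**Figure D3:**
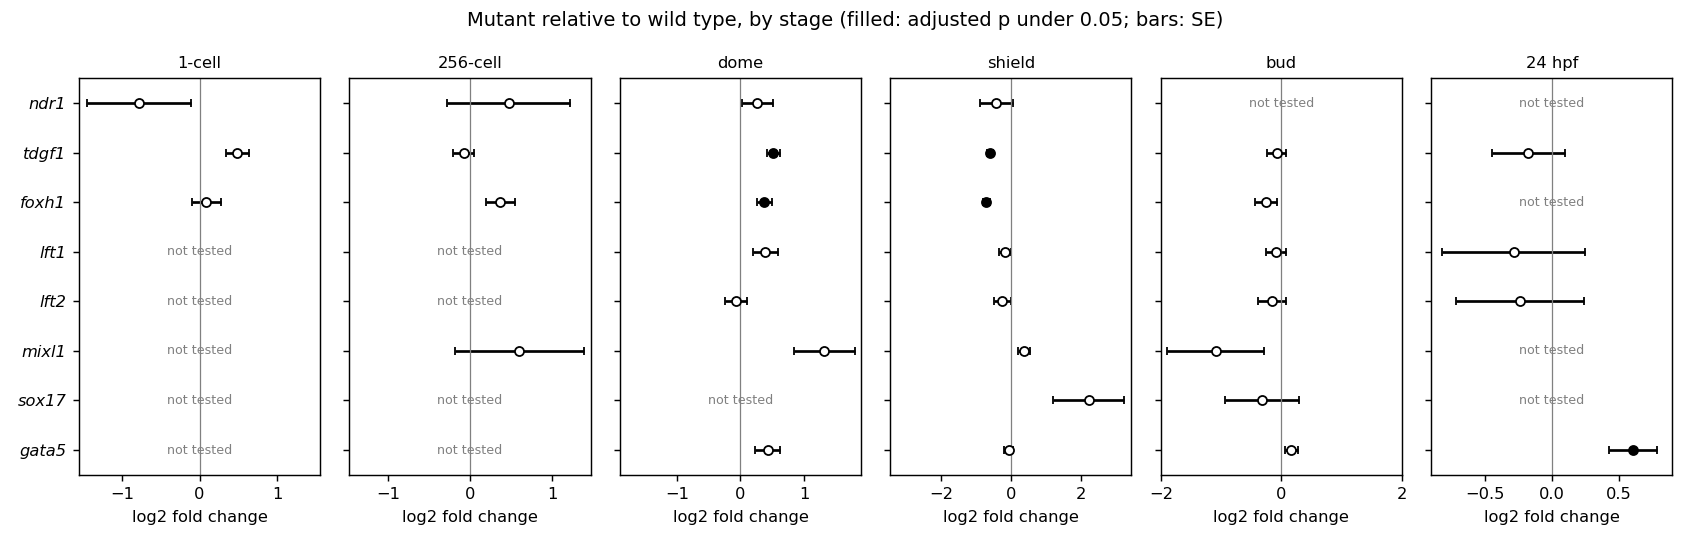
Log2 fold change of mutant over wild type with its SE at each stage, for 8 of the 10 genes (horizontal scales differ between panels). Filled points had an adjusted p under 0.05. tdgf1 and foxh1 lie to the right of 0 at dome and to the left of it at shield.

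The ligand genes did not differ detectably between genotypes. At dome, ndr1 stood at 32.97, 32.1, 38.1 and 34.03 CPM in the wild type and at 46.1, 48.5 and 29.1 CPM in the mutant. The mutant libraries lay on both sides of the wild-type range (0.26, SE 0.24, adjusted p = 0.523). At shield, the mutant values of 6.63, 2.57, 13.2 and 6.79 CPM spread around the wild-type values of 10.3, 10.3 and 8.71 CPM (-0.42, SE 0.49, adjusted p = 0.70). For the maternal RNA of ndr1 at the 1-cell stage, the wild-type libraries had 4.52, 3.38, 7.85 and 4.50 CPM and the mutant ones 1.73, 0.828 and 6.35 CPM (-0.78, SE 0.67, adjusted p = 0.499). Without mutant library 3 the value was -1.99 (adjusted p = 0.0863), and over all alternatives it ran from there to -0.33. After gastrulation ndr1 had 1 count in a single mutant bud library and none in any other bud or 24 hpf library.

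The second ligand gene, ndr2, was near the limit of detection. Its highest levels were 1.54 and 2.20 CPM in wild-type shield libraries 1 and 3 and 1.69 CPM in wild-type dome library 2. The wild-type shield group held 29 counts and the mutant group 7, a ratio of pooled CPM of 4.82 (95% exact interval of the counting error 2.07 to 13.03). With 1 count in wild-type shield library 4, the libraries of the genotypes overlapped, and without the filter the difference was -2.22 (SE 2.15, adjusted p = 0.584).

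The co-receptor gene tdgf1 showed a difference of opposite sign at dome and at shield. At dome, the wild-type libraries had 508, 521, 469 and 425 CPM and the mutant ones 676, 629 and 754 CPM. All mutant libraries were above all wild-type libraries, by 0.51 (SE 0.10, adjusted p = 5.49e-04). At shield, the wild-type libraries had 477, 463 and 464 CPM and the mutant ones 330, 287, 315 and 297 CPM. Here all mutant libraries were below all wild-type libraries, by -0.61 (SE 0.09, adjusted p = 9.86e-05). The genotype effect therefore changed by -1.13 between dome and shield (SE 0.14, adjusted p = 9.47e-07, interaction term), in a comparison in which 6.83% of all genes were called and the median over all genes was -0.11. Both calls and the interaction held in all of their 14, 14 and 21 alternatives.

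At the other stages tdgf1 was not called. At the 1-cell stage, where the RNA is maternal, the mutant libraries had 269, 230 and 203 CPM and the wild-type ones 171, 156, 177 and 163 CPM. The groups did not overlap, yet the difference of 0.49 (SE 0.15, adjusted p = 0.0514) was not called, and it was called in 5 of 14 alternatives, among them library totals (0.57, adjusted p = 0.0307), DESeq2 (0.49, adjusted p = 0.0157) and the fit without mutant library 3 (0.56, adjusted p = 0.0303). At 256-cell the wild-type libraries (133, 140 and 143 CPM) and the mutant ones (123, 129 and 141 CPM) overlapped (-0.08, adjusted p = 0.771). The genotype effect rose from 256-cell to dome by 0.60 (SE 0.15, adjusted p = 0.0108), a comparison in which 2 of 7 members and 6.94% of all genes were called, and in the fit of all 12 groups this adjusted p was 0.117. At bud the value was -0.08 (adjusted p = 0.862) and at 24 hpf -0.18 (adjusted p = 0.797). The change of the effect from shield to bud was 0.57 (SE 0.16, adjusted p = 0.0563), and it was called without mutant shield library 1, wild-type bud library 4 or mutant bud library 4 (0.58 to 0.65). There 0 of 8 members were called by edgeR, 4 had an unadjusted p under 0.05, DESeq2 called 2, and 2.66% of all genes were called.

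The transducer gene foxh1 differed in the same directions as tdgf1. At dome, the wild-type libraries had 184, 207, 213 and 178 CPM and the mutant ones 268, 255 and 235 CPM. The mutant libraries were above all wild-type ones, by 0.37 (SE 0.12, adjusted p = 0.0268). This call was lost in 6 of 14 alternatives, the fit of all 12 groups (adjusted p = 0.258) and those without wild-type library 1 or 4 or mutant library 1 or 2 (0.32 to 0.36, adjusted p of up to 0.125) among them. At shield, the wild-type libraries had 351, 319 and 339 CPM and the mutant ones 216, 223, 189 and 195 CPM. Every mutant library was below every wild-type library (-0.71, SE 0.10, adjusted p = 5.13e-05), and the call held in all 14 alternatives. The change of the genotype effect from dome to shield was -1.09 (SE 0.15, adjusted p = 1.09e-05).

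Outside these stages foxh1 was not called. At 256-cell, 60.5 to 109 CPM in the wild type stood against 95.8 to 112 CPM in the mutant (0.37, SE 0.18, adjusted p = 0.197). Wild-type library 3 lay apart from the other two wild-type libraries, and without it the value was 0.65 (adjusted p = 0.0208). At the 1-cell stage the value was 0.08 (adjusted p = 0.822). At bud the libraries did not overlap (28.6 to 33.7 CPM against 23.6 to 26.7 CPM), with a difference of -0.26 (SE 0.19, adjusted p = 0.528).

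**Figure D4:**
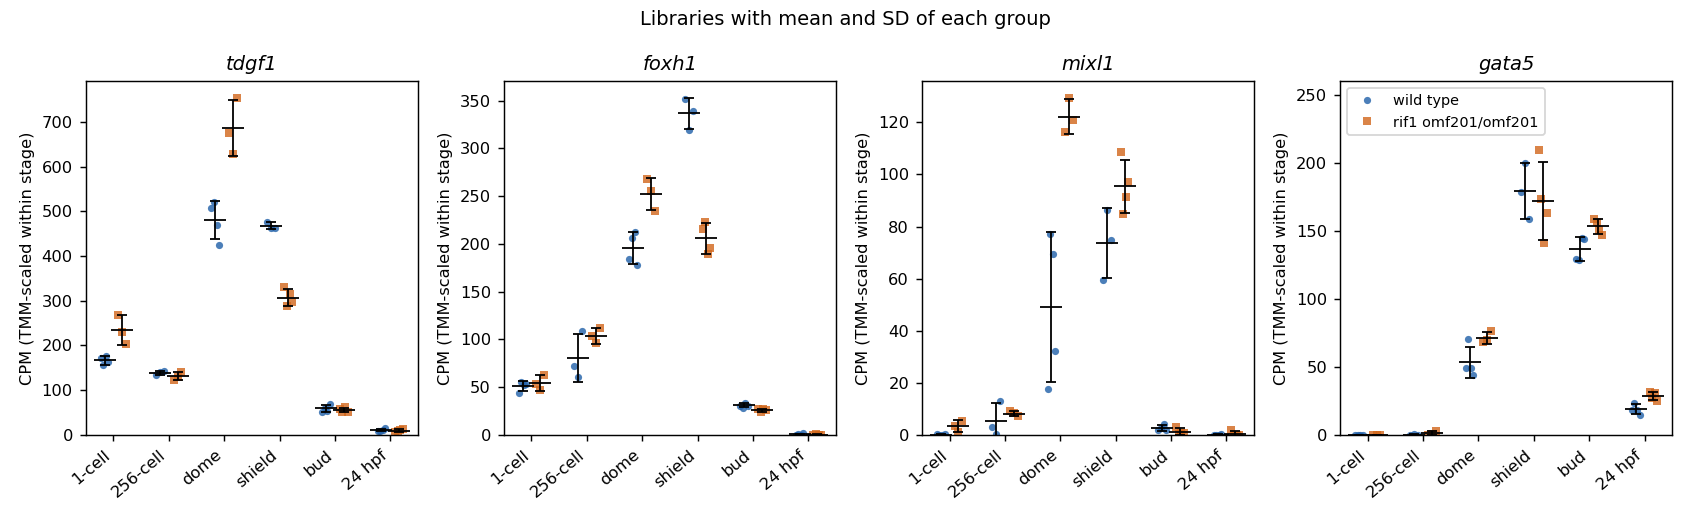
CPM of tdgf1, foxh1, mixl1 and gata5 in each library, on a linear scale that starts at 0, with the mean and SD of each group. Mutant tdgf1 at dome spans 629 to 754 CPM and at shield 287 to 330 CPM, on opposite sides of the wild-type libraries, and wild-type mixl1 at dome spans 17.7 to 77.0 CPM.

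The antagonist genes showed no called difference at any stage by edgeR or DESeq2, and no unadjusted p under 0.05. At dome, lft1 had 50.2, 75.3, 48.7 and 61.5 CPM in the wild type and 64.4, 85.9 and 81.7 CPM in the mutant, with overlap (0.39, SE 0.19, adjusted p = 0.173). At shield the mutant libraries of lft1 spanned 43.3 to 68.1 CPM around the wild-type range of 62.4 to 64.6 CPM (-0.17, SE 0.18, adjusted p = 0.651). At bud the value was -0.09 (adjusted p = 0.858). For lft2, the dome libraries had 67.6 to 73.5 CPM in the wild type and 62.2 to 73.0 CPM in the mutant (-0.06, SE 0.17, adjusted p = 0.852). The differences of lft2 at shield (-0.25, SE 0.25) and bud (-0.15, SE 0.23) were no larger than their standard errors.

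At 256-cell, lft1 had 13, 26 and 1 counts in the mutant libraries and 1, 2 and 0 in the wild-type ones. The ratio of pooled CPM was 13.4 (95% exact interval of the counting error 4.25 to 67.5), the libraries overlapped, and without the filter the difference was 3.69 (SE 1.92, adjusted p = 0.285). The genotype effect on lft1 changed by -3.20 from 256-cell to dome (SE 0.97, adjusted p = 0.0487), a call that was lost in 14 of its 19 alternatives, which include leaving out any of 12 of the 13 libraries, with values from -4.03 to -2.14.

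The upstream genes of the endoderm branch, mixl1 and gata5, were expressed in both genotypes. At dome, mixl1 had 17.7, 77.0, 69.6 and 32.1 CPM in the wild type and 116, 129 and 121 CPM in the mutant. The groups did not overlap, and the wild-type libraries ranged more widely than the mutant ones. The difference of 1.32 (SE 0.48, adjusted p = 0.118) was not called. Without wild-type library 1 it was 1.04 (adjusted p = 0.00369) and without library 2 it was 1.61, and both were called. At shield the mutant libraries had 109, 84.9, 91.2 and 97.0 CPM and the wild-type ones 59.5, 86.3 and 74.9 CPM (0.38, SE 0.16, adjusted p = 0.152).

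Transcripts of mixl1 were also counted at the 1-cell stage. The mutant libraries had 31, 9 and 38 counts (3.58, 0.932 and 5.48 CPM) and the wild-type ones 3, 0, 0 and 3 (0.234, 0, 0 and 0.281 CPM). The groups did not overlap, and the ratio of pooled CPM was 22.6 (95% exact interval of the counting error 9.92 to 63.4). The gene did not pass the filter on low counts at this stage, and without the filter the difference was 4.50 (SE 1.32, adjusted p = 0.0116). At 256-cell the wild-type libraries had 3.01, 0.287 and 13.1 CPM and enclosed the mutant values of 9.07, 8.40 and 7.14 CPM (0.60, SE 0.78, adjusted p = 0.709). Over the alternatives this value ran from 0.04 without wild-type library 2 to 2.28 (adjusted p = 0.0902) without wild-type library 3. The change of the genotype effect from 1-cell to 256-cell was -3.88 (SE 1.38, adjusted p = 0.0908), and it was called without mutant 1-cell library 2 (-4.33) or wild-type 256-cell library 2 (-4.44), while without wild-type 256-cell library 3 it was -2.23. In that comparison 0 of 4 members were called by edgeR, 2 had an unadjusted p under 0.05, DESeq2 called 2, and 6.88% of all genes were called. At bud, mixl1 was low in both genotypes (1.98 to 4.32 CPM and 0.454 to 3.20 CPM), with a difference of -1.09 (SE 0.81, adjusted p = 0.532), and of -2.06 (adjusted p = 0.264) without mutant library 1. The change of the genotype effect from shield to bud was -1.41 (SE 0.49, adjusted p = 0.137), and it was called without mutant bud library 1 (-2.37, adjusted p = 0.00122), with DESeq2 (-1.46) and with no filter (-1.42).

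For gata5 the called difference was late. At 24 hpf, the wild-type libraries had 18.6, 23.5, 18.5 and 14.9 CPM and the mutant ones 31.4, 27.3, 30.9 and 25.2 CPM. All mutant libraries were above all wild-type ones, by 0.61 (SE 0.18, adjusted p = 0.0282). The call was lost in 7 of 15 alternatives, among them those without wild-type library 1, 3 or 4 or mutant library 1 or 3 (0.51 to 0.60, adjusted p of up to 0.129) and the fit of all 12 groups (adjusted p = 0.166). At dome the mutant values of 68.0, 69.8 and 76.6 CPM overlapped the wild-type values of 49.3, 70.4, 48.9 and 44.3 CPM through wild-type library 2 (0.43, SE 0.19, adjusted p = 0.138), and without that library the difference was 0.58 (adjusted p = 0.0396). At shield, gata5 did not differ detectably (-0.06, SE 0.13, adjusted p = 0.851). At bud the mutant libraries (147 to 159 CPM) were all above the wild-type ones (128 to 145 CPM), by 0.17 (SE 0.11, adjusted p = 0.485). Between bud and 24 hpf the genotype effect changed by 0.44 (SE 0.18, adjusted p = 0.236). In that comparison 0 of 7 members were called by edgeR, 1 had an unadjusted p under 0.05, DESeq2 also called 0, and 2.91% of all genes were called.

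The downstream endoderm genes were sparsely counted. At shield, sox17 had 12, 10 and 0 counts in the wild-type libraries and 29, 18, 44 and 33 in the mutant ones, or 1.54, 1.38 and 0 CPM against 4.18, 2.89, 6.18 and 5.34 CPM. The mutant libraries were all higher, by 2.24 (SE 1.02, adjusted p = 0.189), and the difference was not called in any of its 13 alternatives. With no count in wild-type shield library 4, sox17 passed the filter on low counts only through the mutant libraries. Its place among the genes tested at shield is therefore not independent of this difference. At bud the ranges were 2.29 to 4.55 CPM and 0.983 to 3.93 CPM and overlapped (-0.33, SE 0.61, adjusted p = 0.852). The 41 counts of sox32 lay in wild-type libraries, with 18 in dome library 2, 13 in shield library 4, 7 in bud library 2, 2 in 24 hpf library 4 and 1 in dome library 3. All 21 mutant libraries had 0 counts of it. Within each stage other wild-type libraries also had none, and without the filter the difference at dome had an adjusted p of 0.272 and at shield of 0.337. At dome the floor of 3 counts per library corresponds to 0.514 CPM in the mutant group, so levels below this were not detectable at this depth. In the RefSeq gene table (assembly GRCz12tu) sox17 and sox32 lie on the same chromosome with 1 protein-coding gene between them, and no member lies on the chromosome of rif1.

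At dome and shield, genes that change along the wild-type course also differed between the genotypes. At dome, the 1739 genes that rise between the wild-type 256-cell and shield stages by at least 2 log2 units had a median genotype difference of 0.50, and the 1928 that fall had a median of -0.46. For shield, with dome and bud as the flanking stages, the medians were 0.24 over 1683 rising and -0.45 over 1608 falling genes. Of 7 members that change between the flanking wild-type stages, 6 had a difference at dome with the sign of the later stage (lft2 was the exception), 2 of them called, as had 72.2% of the 7284 genes that change. At shield it was 5 of 7, 2 of them called (gata5 and mixl1 were the exceptions), and 66.6% of 7213 genes. At 256-cell the medians were 0.03 over rising and 0.10 over falling genes, with 3 of 4 members and 44.8% of 5982 genes toward the later stage. At bud both medians were -0.05, with 5 of 6 members and 49.3% of 7228 genes, and none of these members was called at 256-cell or bud. The part of this general difference in the differences of tdgf1 and foxh1 was not tested.

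Markers of other cell types moved as well. The summed level of 5 enveloping layer keratin genes (krt4, krt5, krt8, krt92 and cyt1) was 873 to 1192 CPM in the wild-type dome libraries and 2124 to 2211 CPM in the mutant ones, and 5958 to 6325 CPM against 7756 to 8347 CPM at shield. The sum of 4 ectoderm markers at dome was 478 to 578 CPM against 647 to 690 CPM, and that of 5 yolk syncytial layer markers 467 to 535 CPM against 376 to 458 CPM. Most of this last sum was mxtx2, with means of 411 CPM in the wild type and 300 CPM in the mutant. It therefore does not show that the yolk syncytial layer markers fell together. The sum of 5 mesoderm markers overlapped at dome (500 to 672 CPM and 509 to 604 CPM) and was 932 to 993 CPM against 807 to 889 CPM at shield. The mesoderm markers did not move together at shield. There tbx16 was lower in the mutant (means 533 and 365 CPM) and mespaa higher (21.3 and 48.8 CPM). The endoderm marker entries, 6 in number with sox17 and sox32 among them, summed to 542 to 773 CPM in the wild type and 808 to 882 CPM in the mutant at dome, and overlapped at shield (882 to 915 CPM and 881 to 945 CPM). At dome, 2 of these entries, both named CXCR4 and not told apart as paralogues, had means of 138 and 240 CPM in the wild type. Their means in the mutant were 234 and 324 CPM. The highest dome levels of sox17 and sox32 in any library were 1.71 and 2.76 CPM. Counts were found for all markers of these cell types at dome in both genotypes except mespaa and sox32, which were at 0 in the mutant. At 24 hpf, beside the gata5 difference, the enveloping layer sum was 19289 to 19924 CPM in the wild type and 21538 to 23809 CPM in the mutant. The yolk syncytial layer sum was 2839 to 3430 CPM in the wild type and 3458 to 4323 CPM in the mutant. At bud it went the other way, with 1088 to 1272 CPM in the wild type and 649 to 779 CPM in the mutant. The endoderm sum at 24 hpf was 87.5 to 103 CPM against 104 to 122 CPM, with sox17 and sox32 at 0 in the mutant. In the wider list of endoderm genes described below, 0 of 13 entries tested at 24 hpf were called by edgeR. The endoderm sum therefore does not show that these markers rose together. The part of these marker differences in the member differences was not tested.

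A list of 11 genes with 12 entries was drawn up as upstream regulators of the Nodal genes. Whether each of them acts upstream of these genes was not tested. At dome, 2 of the 10 entries tested were higher and 1 lower, where 8.42% of all genes were called higher and 8.59% lower. The maternal pluripotency factor gene pou5f3 was higher (mean 1013 CPM in the wild type and 1422 CPM in the mutant, log2 fold change 0.49, SE 0.10, adjusted p = 7.73e-04). So was vgll4l (0.40, SE 0.12, adjusted p = 0.018), while mxtx2, a homeobox gene of the yolk syncytial layer, was lower (-0.46, SE 0.11, adjusted p = 0.0044). At shield, 2 of 9 were lower, where 5.06% of all genes were called lower, with a list median of -1.19 beside 0.00 over all genes. From wild-type shield to bud, 8 of 9 entries tested were called lower. The 1608 genes that fall between wild-type dome and bud had a median genotype difference of -0.45 at shield. The part of this general difference in the list was not tested. The entries called lower at shield were mxtx2 (37.8 and 11.4 CPM, -1.73, SE 0.32, adjusted p = 9.51e-04) and the maternal SoxB1 gene sox19b (32.3 and 6.93 CPM, -2.21, SE 0.37, adjusted p = 3.32e-04). The gene sox19b was also lower at 256-cell (-1.29, adjusted p = 6.04e-07), at bud (-1.17, adjusted p = 0.0211) and at 24 hpf (-1.66, adjusted p = 1.92e-06). At 256-cell hwa, a maternal activator of beta-catenin, was higher (21.6 and 57.8 CPM, 1.42, SE 0.23, adjusted p = 8.35e-05), and at 1-cell none of 5 was called by edgeR or DESeq2, with 0 at an unadjusted p under 0.05.

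Other components of the pathway, 19 genes with 20 entries, were called mostly in single entries. Over all genes, 5.14% were called higher at 1-cell, 8.42% at dome and 4.35% at 24 hpf. The shares called lower were 6.71% at 256-cell, 8.59% at dome and 5.06% at shield. Where the name table gives paralogues a shared symbol, they are named by that symbol and reported as uncertain. At 1-cell, 3 of 15 entries were higher, 2 of them under the name ACVR2B (1.24, SE 0.18, adjusted p = 0.00104, and 0.94, SE 0.20, adjusted p = 0.00995) and 1 under ACVR1B (1.05, SE 0.27, adjusted p = 0.0258), which are names of activin-type receptors. The gene gdf3, which encodes the maternal partner of the Nodal ligands (Vg1), was lower at 256-cell (870 and 657 CPM, -0.40, adjusted p = 0.00647), at dome (862 and 633 CPM, -0.44, adjusted p = 0.0024) and at shield (243 and 169.5 CPM, -0.52, adjusted p = 0.00334). At dome, 3 of 14 were lower and 1 higher, and among them the signal transducer smad2 was lower (237 and 147 CPM, -0.69, SE 0.15, adjusted p = 0.00182) and the repressor tgif1 higher (0.54, SE 0.16, adjusted p = 0.0164). An entry named SMAD4 was lower at 256-cell (-1.10, adjusted p = 0.00171) and at shield (19.5 and 3.94 CPM, -2.30, SE 0.39, adjusted p = 3.02e-04). At 256-cell and at shield 2 of 14 were lower and none higher, at bud none of 13 was called by edgeR or DESeq2 (0 at an unadjusted p under 0.05), and at 24 hpf the single call of 12 was an entry named FURIN (0.67, SE 0.13, adjusted p = 6.00e-04).

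Early targets of the signal, 22 genes with 24 entries, were higher at dome more often than lower. Of 16 entries tested, 9 were higher and 1 lower, with a list median of 0.44 beside -0.03 over all genes, and with library totals 4 were higher and 2 lower. Over all genes, 8.42% were called higher and 8.59% lower at dome. From wild-type 256-cell to dome, 14 of 17 entries tested were called higher and 0 lower. The 1739 genes that rise between wild-type 256-cell and shield had a median genotype difference of 0.50 at dome, and 79.5% were higher. The part of this general difference in the list was not tested. The largest difference among the 3 with the smallest adjusted p was that of tbxta, the notochord and tail mesoderm gene (28.4 and 65.0 CPM, 1.19, SE 0.24, adjusted p = 6.42e-04). The Apelin receptor ligand gene apela (155 and 244 CPM, 0.66, SE 0.13, adjusted p = 5.30e-04) and an entry named FSCN1, an actin bundling protein (78.8 and 139.9 CPM, 0.83, SE 0.14, adjusted p = 1.46e-04), were also higher. At shield, 2 of 19 were higher and 2 lower, with a median of -0.12, where 4.70% of all genes were called higher and 5.06% lower. Lower were aplnra, the receptor gene of the Apelin system (359 and 251 CPM, -0.52, adjusted p = 0.00163), and the T-box gene tbx16 (533 and 365 CPM, -0.55, adjusted p = 0.00468), and mespaa, a bHLH gene of the paraxial mesoderm, was higher (21.3 and 48.8 CPM, 1.19, adjusted p = 0.00568). At bud 2 of 18 were lower, aplnra (-0.54, adjusted p = 0.0191) and the BMP antagonist gene chrd (-0.35, adjusted p = 0.0348). None of 5, 7 and 16 was called at 1-cell, 256-cell and 24 hpf by edgeR, where 2, 1 and 1 had an unadjusted p under 0.05 and DESeq2 called 1, 1 and 0.

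Endoderm genes beyond the members, 14 genes with 16 entries, were called 4 times over the 6 stages, each time higher. Of all genes, 6.75% were called higher at 256-cell, 8.42% at dome and 4.70% at shield. From wild-type 256-cell to dome, 8 of 9 entries tested were called higher and 0 lower. Among the 1739 genes that rise between wild-type 256-cell and shield, 79.5% were higher in the mutant at dome. The part of this general difference in the list was not tested. At dome the called entries were the 2 named CXCR4, a chemokine receptor (138 and 234 CPM, 0.77, SE 0.14, adjusted p = 3.23e-04, and 240 and 324 CPM, 0.44, SE 0.12, adjusted p = 0.0129), of 9 tested. At shield it was onecut1 (35.8 and 61.2 CPM, 0.77, SE 0.20, adjusted p = 0.0162), of 9 tested. At 256-cell it was gata6, another gene of the GATA family, of 4 tested (2.58 and 16.6 CPM, 2.70, SE 0.48, adjusted p = 2.88e-04). None of 6, 10 and 13 was called at 1-cell, bud and 24 hpf by edgeR, where 0, 3 and 2 had an unadjusted p under 0.05 and DESeq2 called 0, 1 and 1.

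**Figure D5:**
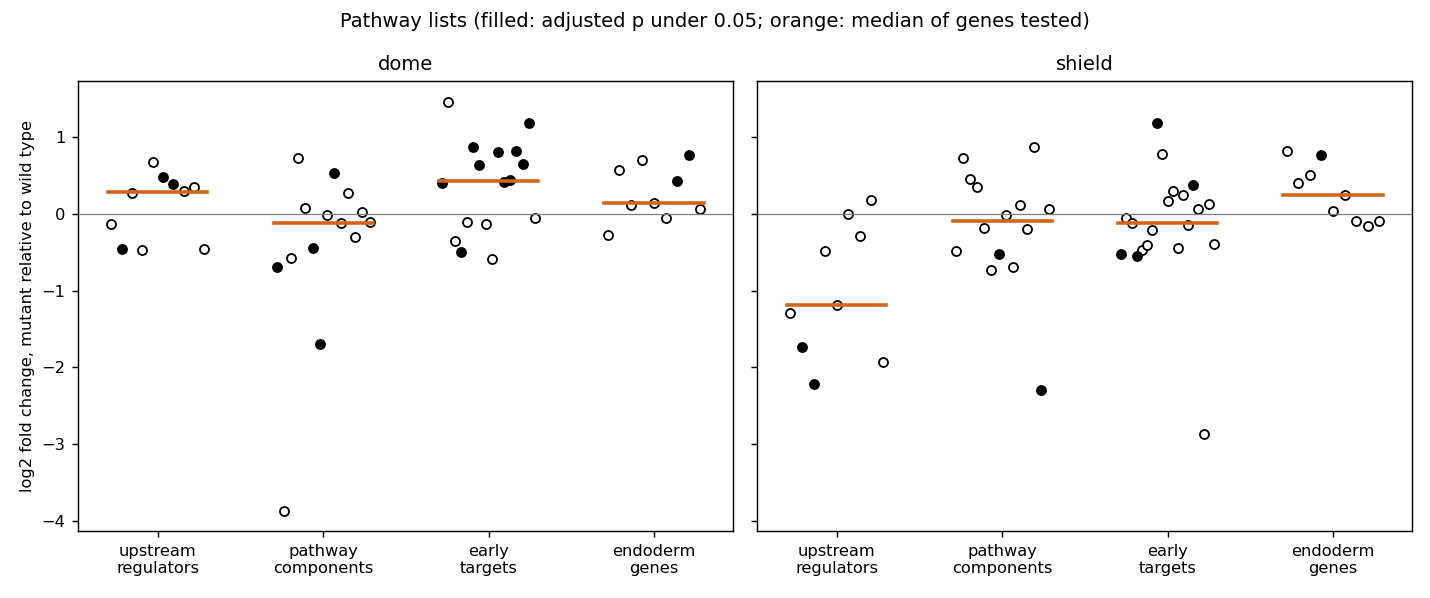
Log2 fold change of mutant over wild type at dome and at shield for the tested entries of the upstream, pathway, early target and endoderm lists, with filled points for an adjusted p under 0.05 and orange lines for the median of the entries tested. The early targets have 9 called higher and 1 lower at dome, and 2 in each direction at shield.

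The genes with the most similar course over the 12 groups were ranked for 8 members. Candidates were genes with a symbol of their own, not that of a clone, a predicted gene or a numbered copy. Entries that share a symbol or have none were not ranked, so a closer gene among them would be missed. By Pearson correlation of log2(mean CPM + 1) among 9390 genes, the gene closest to foxh1 was VRTN (0.991), followed by pou5f3 (0.988), and the closest to lft1 were vox (0.995) and ved (0.990), transcriptional repressors of dorsal fate. The closest to lft2 was fgf17 (0.991), with vox next (0.988), and the closest to gata5 were OSR1 (0.996) and SP5 (0.994). For tdgf1 it was cd2bp2 (0.972), for mixl1 ptp4a2b (0.983), for ndr1 UHRF1 (0.980) and for sox17 CTSC (0.961). The points share the library scaling and the 6 stages, and of the 24 genes in these lists of 3 per member, 4 were also in the list by Spearman correlation.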

How the data were processed

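The values are raw counts of reads per gene in one table, deposited by the authors without normalization. The submitters' processing notes name STAR, HTSeq and GRCz11; the use of strand is not given in the sources used here, so overlapping genes could share reads. No source says that reads were counted as separate molecules, so intervals and floors cover counting error only. Symbols were matched to 28877 of 31877 entries, all 43 columns were used, and the labels gave the 12 groups. Replicate pairs (57) differed beyond sampling noise.

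Each stage was fitted alone with edgeR 4.0.16 in R 4.3.3 (quasi-likelihood test, TMM, filterByExpr, Benjamini-Hochberg over all genes tested). Neighbouring wild-type stages and the interaction of genotype and stage were fitted the same way. The code was tested on simulated data. CPM values were computed from the counts, library totals and TMM factors. Alternatives were RLE factors, library totals, DESeq2 1.42.0, 2 other filters on low counts, a fit of all 12 groups, a replicate block, and each library left out.

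The members and lists were chosen with earlier results of these data known. Named besides the members are at most 3 called genes per list and genotype comparison, with the smallest adjusted p, and the 3 genes of the most similar course per member (a unique symbol and at least 5 CPM in 1 group), of which the closest are printed. Sequences were not used here.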

Additional observations from a re-analysis of the deposited data

Results flagged for a closer look

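Within groups of 4 libraries, 5 of 44 gene and group combinations held a library far from the other 3, by Dixon's criterion at the 95% level. Chance alone meets it in about 1 of 20 only for normally distributed values. A library with counts always meets it where the others have none, so that rate does not apply to sparsely counted genes. In wild-type dome library 2, ndr2 stood at 1.69 CPM with the other 3 at 0, and sox32 at 2.76 CPM with the others between 0 and 0.154 CPM. In mutant bud library 2, foxh1 was low at 23.6 CPM, with the others at 26.3 to 26.7 CPM. For mixl1, mutant bud library 1 had 3.20 CPM with the others at 0.454 to 0.786 CPM, and mutant 24 hpf library 1 had 1.87 CPM with the others at 0.

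The genotype effect differed between neighbouring stages, by the interaction term of edgeR's fit, in 4 cases. For tdgf1 it changed by 0.60 from 256-cell to dome (adjusted p = 0.0108) and by -1.13 from dome to shield (adjusted p = 9.47e-07). For foxh1 it changed by -1.09 from dome to shield (adjusted p = 1.09e-05). For lft1 it changed by -3.20 from 256-cell to dome (adjusted p = 0.0487), and the 256-cell value rests on 3 counts in the wild-type libraries and 40 in the mutant ones.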

How the results depend on the processing

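Of 35 called member results, 24 kept call and direction in all alternatives, 10 lost the call in at least 1, and tdgf1 between wild-type dome and shield reversed with library totals (-0.028, adjusted p = 0.815). Of 66 not called, 11 were called in at least 1 alternative. The number of members called between genotypes at 1-cell was 1 in place of 0 with library totals, DESeq2, no filter or at least 10 counts in every library, 2 in the fit of all 12 groups, and 0 to 1 with a library left out. The fit of all 12 groups called 2 at 256-cell (0 to 1 with a library left out), 1 at dome (1 to 4) and 0 at 24 hpf (0 to 1), where library totals also gave 0. At shield the count was 2 throughout. For wild-type 1-cell to 256-cell it was 1 with library totals, 4 in the fit of all 12 groups and 1 to 3 with a library left out. It was 3 for 256-cell to dome with at least 10 counts in every library, 3 for dome to shield in the fit of all 12 groups, and 4 for bud to 24 hpf with at least 10 counts. For the interaction of 1-cell to 256-cell it was 2 with DESeq2, 1 with no filter or at least 10 counts, and 0 to 1 with a library left out. For 256-cell to dome it was 1 with RLE factors, DESeq2, at least 10 counts or the fit of all 12 groups, and 1 to 2 with a library left out. For shield to bud it was 2 with DESeq2, 1 with no filter, and 0 to 1 with a library left out. The causes were not tested, except that stricter filters leave fewer genes to test.

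Same-numbered libraries of the genotypes showed no strong common deviation (correlations from -0.24 to 0.24). Deviations within such small groups cannot decide whether the pools were paired, and the labels do not say. With the replicate block, 1 member in place of 2 was called for wild-type 1-cell to 256-cell, mixl1 at dome was called (1.36, adjusted p = 0.0376), foxh1 at dome was not (0.33, adjusted p = 0.0954), and 361 genes in place of 584 were called at bud. Counts over all genes moved by over 1.5 times in 23 of 262 alternatives, which follow. Against 1232 at 1-cell, DESeq2 gave 1858 and leaving out wild-type library 1, 2 or 4 or mutant library 1 gave 466 to 660. The fit of all 12 groups gave 725 against 1499 at 256-cell and 261 against 1082 at 24 hpf. Against 1049 at shield, 622 and 606 were called without wild-type library 1 or 4, and at bud 360 to 381 without wild-type library 1, 3 or 4. For the interactions, 1-cell to 256-cell gave 502 to 576 against 898 without wild-type 256-cell library 2 or 3 or mutant library 3, and 256-cell to dome gave 589 against 904 in the fit of all 12 groups. Shield to bud gave 566 with DESeq2 and 211 without wild-type shield library 4, against 338. Bud to 24 hpf gave 633 with DESeq2, 663 with no filter, 180 in the fit of all 12 groups and 265 without wild-type 24 hpf library 4, against 398. Counts of the 4 lists moved so in 6 of 128. With sets defined at 1 log2 unit, the course medians at dome were 0.34 and -0.35 and those at shield 0.18 and -0.31. The members with the fewest counts were ndr2, sox32 and sox17, with 74, 41 and 359 in all libraries together. Whether depth accounts for this was not tested.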
